A study of Mus musculus with 4 samples.

Results

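The 6 genes Col4a1, Col4a2, Col18a1, Hspg2, Sparc and Tinagl1 encode components or partners of the basement membrane, and their transcripts were compared between mouse extraembryonic endoderm (XEN) cells and embryonic stem (ES) cells. All probe sets annotated to exactly 1 of these symbols were taken, which gave 10 probe sets of the 12488 on the Affymetrix MG_U74Av2 array: 5 for Col18a1 and 1 for each of the other genes. The genes were selected on their signals in XEN and ES cells, known from an earlier reading of these arrays, so their values are given as a description, without a test. Total RNA was hybridised to 1 array per culture. The XEN group held 3 cultures. IM8A1-I was the IM8A1 line (PO strain) at passage 27, grown on gelatin in medium labelled 70% EMFI-CM. IM8A1-II was the same line at the same passage, moved for 4 days to tissue culture plastic and to RPMI 1640 medium that held 20% FBS. XEN1-3 was a second line, of ICR strain at passage 18, grown as IM8A1-I was. The ES group was 1 culture of R1 cells, undifferentiated, with LIF and a gelatin substrate. The 3 XEN arrays thus stand for 2 lines and 2 culture conditions, and the spread between them is not that of repeated cultures of 1 line. Where 3 XEN values follow each other they belong to IM8A1-I, then IM8A1-II, then XEN1-3.

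A basement membrane is a thin extracellular sheet built from a laminin network and a type IV collagen network, linked by nidogens and by perlecan. Parietal endoderm, which descends from the same primitive endoderm lineage as XEN cells, lays down Reichert's membrane, an unusually thick basement membrane of the rodent yolk sac. Type IV collagen is secreted as a trimer of alpha 1 chains (Col4a1) and an alpha 2 chain (Col4a2). Collagen XVIII (Col18a1) is a basement membrane collagen that carries heparan sulfate chains and whose C-terminal part is released as endostatin. Hspg2 encodes perlecan, the large heparan sulfate proteoglycan. Sparc encodes a calcium-binding matricellular protein that binds type IV collagen, and Tinagl1 encodes a matrix glycoprotein related to tubulointerstitial nephritis antigen.

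Col4a1 and Col4a2 are neighbours on mouse chromosome 8 and are read in opposite directions from a common region. Their promoter windows (250 bases before to 50 after the annotated start, RefSeq, build GRCm38.p6) are shown because both transcripts are produced from this region. The Col4a1 window is chr8:11312777-11313076 on the minus strand, the Col4a2 window is chr8:11312555-11312854 on the plus strand, and the capitals mark the 78 bases (chr8:11312777-11312854) that belong to both. The windows of Sparc (chr11:55420031-55420330, minus strand) and of the downstream of both annotated starts of Tinagl1 (chr4:130174753-130175052, minus strand) follow for comparison, with each GC box (GGGCGG or its reverse complement) in capitals. All are written 5′ to 3′ in the direction of the gene.
Col4a1: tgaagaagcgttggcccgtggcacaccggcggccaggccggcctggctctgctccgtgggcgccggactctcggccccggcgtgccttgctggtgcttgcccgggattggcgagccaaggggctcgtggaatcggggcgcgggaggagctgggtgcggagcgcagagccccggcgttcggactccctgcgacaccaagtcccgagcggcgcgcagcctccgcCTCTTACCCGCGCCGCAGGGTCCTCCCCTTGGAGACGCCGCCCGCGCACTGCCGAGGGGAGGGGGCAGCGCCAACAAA
Col4a2: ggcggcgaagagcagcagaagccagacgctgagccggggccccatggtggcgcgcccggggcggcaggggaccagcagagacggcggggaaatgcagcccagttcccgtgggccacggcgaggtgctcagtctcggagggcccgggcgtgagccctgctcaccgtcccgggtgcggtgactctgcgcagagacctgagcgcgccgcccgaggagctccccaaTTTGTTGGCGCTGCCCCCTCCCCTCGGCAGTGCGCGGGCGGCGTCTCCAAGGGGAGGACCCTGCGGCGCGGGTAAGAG
Sparc: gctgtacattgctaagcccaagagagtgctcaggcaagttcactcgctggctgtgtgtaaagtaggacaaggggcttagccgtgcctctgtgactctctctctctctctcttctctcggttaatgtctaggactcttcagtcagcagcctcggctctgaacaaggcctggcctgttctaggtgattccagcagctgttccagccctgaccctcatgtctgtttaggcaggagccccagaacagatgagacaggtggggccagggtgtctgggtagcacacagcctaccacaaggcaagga
Tinagl1: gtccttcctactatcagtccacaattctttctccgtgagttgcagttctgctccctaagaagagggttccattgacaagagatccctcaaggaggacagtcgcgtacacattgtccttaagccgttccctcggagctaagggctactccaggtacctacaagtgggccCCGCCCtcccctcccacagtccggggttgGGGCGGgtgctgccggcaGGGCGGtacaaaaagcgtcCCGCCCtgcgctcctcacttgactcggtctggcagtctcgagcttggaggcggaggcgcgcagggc
Of 27025 genes with such a window, 11.9% have one that overlaps a window of another gene on the opposite strand. Both windows of the collagen pair are rich in G and C, at 74.0% for Col4a1 and 73.7% for Col4a2, against a median of 52.7% over all 32851 windows. The Sparc window is at 55.3% and this Tinagl1 window at 60.7%.

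Letters of common promoter elements were searched on both strands of the 8 windows of the 6 genes, Col18a1 and Tinagl1 having 2 each. GGGCGG was found in 5 of the 8 windows and in 35.7% of all windows. The shared stretch of the collagen pair holds 1 GC box, which starts 10 bases into Col4a1 and 8 bases into Col4a2. Over the whole window Col4a1 has 1 GC box, Col4a2 has 3 and the upstream start of Col18a1 has 3. The Tinagl1 window shown holds 4 GC boxes, the Hspg2 window (chr4:137468553-137468852) holds 5, and the Sparc window holds 0. CCAAT was found in 3 of the 8 windows (37.4% of all windows), those of Col4a1, Col4a2 and the upstream start of Col18a1 (chr10:77166481-77166780). TATAAA, the GATA motifs AGATAA and TGATAA, and the SOX motif AACAAT were found in 0 of the 8 windows, and in 13.6%, 11.2%, 9.05% and 10.7% of all windows. These are matches of letters, and no binding was measured here.

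Signal is in arbitrary units on a linear scale, 1 value per probe set and array. Signals under a limit of 27.3 units (the 40th percentile over the arrays) were treated as background. Each marker was read by its brightest probe set. The 5 ES cell markers summed to between 47.0 and 51.0 units on the XEN arrays, all under the limit one by one, against 12352 units in ES. The 8 extraembryonic endoderm markers were Gata4, Gata6, Sox17, Sox7, Foxa2, Dab2, Pth1r and Lama1. All were above the limit in XEN, with sums of 16651 to 20635 units, against 307 units in ES. Further tested probe sets of Nanog (-4.01 in log2), Sox17 (6.38) and Dab2 (3.82 and 2.61) differed in the same direction, as did a Gata6 probe set (2.23). Another Gata6 probe set (0.22) and another of Pou5f1 (-0.19) differed little. Lama1, itself a basement membrane gene, was the brightest, at 9259, 6375 and 6066 units in XEN and 142 in ES. Sox7 had 1339, 225 and 981 units, against 23.7 in ES, and Dab2 had 2333, 4937 and 1925, against 42.4. Among 12 fibroblast or feeder cell markers, 3 or 4 reached the limit on each XEN array and 4 in ES, with sums of 580 to 720.3 units in XEN and 529 in ES. Of these, 5 (Col3a1, Dcn, Fap, Postn and Prrx1) were under the limit on all arrays. Twist1 had 156, 87.5 and 5.80 units in the XEN cultures, against 11.8 in ES. Col1a2 had 352, 353 and 403 units on its brightest probe set, against 206 in ES. Its other probe set was under the limit on all arrays. Thy1 and Col1a1 went the other way and were lower on every XEN array than in ES. Thy1 reached the limit only in ES, at 48.5 units, and Col1a1 averaged 78.8 ± 14.6 units in XEN, against 153 in ES. The part of such cells in the results was not tested. The 7 trophoblast markers summed to 105 to 136 units in XEN and 930.1 in ES, where Tfap2c made up most of the sum. Ratios of 3' to 5' control signals lay between 1.21 and 1.24 (actin) and between 0.954 and 1.08 (Gapdh) in XEN, and at 1.25 and 1.02 in ES. Per the file headers the XEN arrays came from one chip lot and the ES array from another, so a difference between chip lots and one between cell types cannot be told apart. The run record of XEN1-3 carries a message that no fluid was detected.

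**Figure D1:**
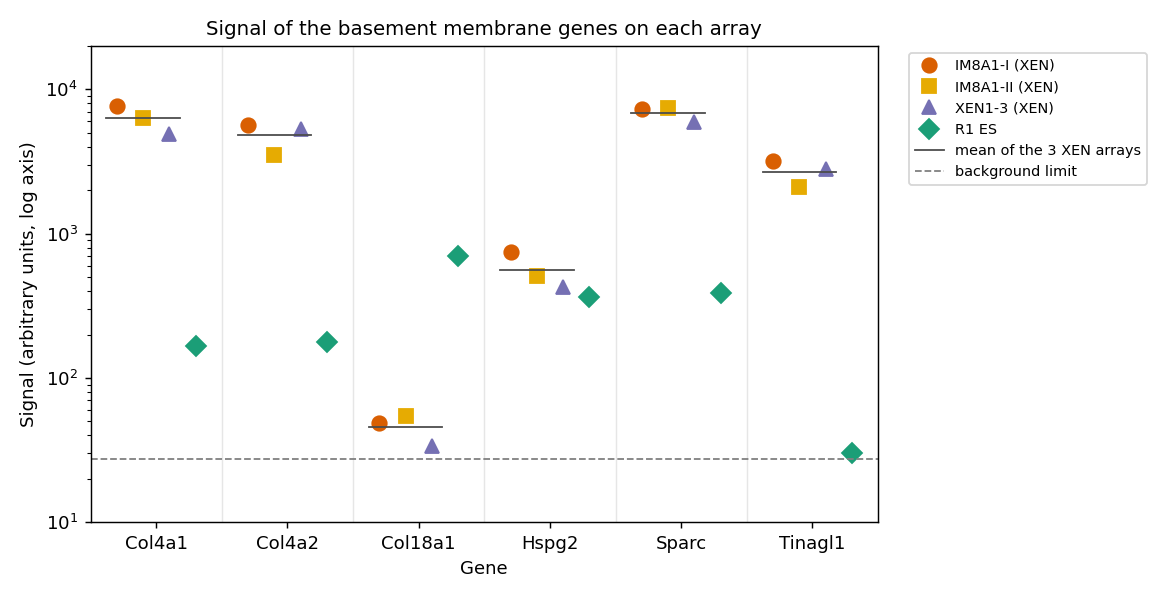
Signal of the 6 genes on each array (y axis, arbitrary units, log scale; Col18a1 by its brightest probe set). The 3 XEN arrays stand left of the ES array within each gene, the grey bar is the XEN mean and the dashed line is the background limit of 27.3 units. Col4a1, Col4a2, Sparc and Tinagl1 are higher on every XEN array than in ES, Col18a1 is lower, and Hspg2 lies closest to its ES value.

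Both type IV collagen chains stood far higher in XEN than in ES cells. Col4a1 had 7712 units in IM8A1-I, 6377 units in IM8A1-II and 4911 in XEN1-3, against 167 in ES. The lowest XEN value was 29.4 times the ES value. The XEN mean was 6333 ± 1401 units (SD, n = 3), 37.9 times ES. Col4a2 had 5658 units in IM8A1-I, 3491 units in IM8A1-II and 5308 in XEN1-3, against 177 in ES. Here the lowest XEN value was 19.7 times ES, and the mean of 4819 ± 1164 was 27.3 times ES. On the log2 scale with 10.5 units added, the differences were 5.13 ± 0.33 for Col4a1 and 4.66 ± 0.38 for Col4a2 (SD over the XEN arrays, n = 3). They ranked 15 and 26 from the top among 8582 tested probe sets. The spread among XEN cultures was alike in size but not in order, with the lowest Col4a1 value in XEN1-3 and the lowest Col4a2 value in IM8A1-II.

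Sparc and Tinagl1 were also higher on every XEN array. Sparc had 7284 units in IM8A1-I, 7376 units in IM8A1-II and 5924 in XEN1-3, against 386 in ES. It was the most even of the genes that stood higher in XEN: its highest XEN value exceeded the lowest by 24.5%. The mean of 6861 ± 813 units was 17.8 times ES, a log2 difference of 4.11 ± 0.18 that ranked 43 of 8582. Tinagl1 had 3187 units in IM8A1-I, 2112 units in IM8A1-II and 2790.1 in XEN1-3, against 30.3 in ES. The ES value lay just above the background limit. Its XEN mean of 2696 ± 544 was 89.0 times ES, and its log2 difference of 6.03 ± 0.30 ranked 6. The size of the difference depended on the offset: it was 5.08 when the median signal was added and 6.37 when the 5th percentile was added.

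Hspg2, the perlecan gene, differed little. It had 744 units in IM8A1-I, 505 units in IM8A1-II and 425 in XEN1-3, against 366 in ES. All 3 XEN values lay above ES, but the lowest was only 1.16 times ES. The mean was 558 ± 166 units, 1.53 times ES, and the log2 difference of 0.56 had an SD of 0.41 among the XEN arrays. It ranked 2206 of 8582. Without IM8A1-I, the XEN array on which it was highest, the difference was 0.33.

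Col18a1, by contrast, was lower in XEN cells. Its brightest probe set, 99638_at, had 48.4 units in IM8A1-I, 54.4 units in IM8A1-II and 34.0 in XEN1-3, against 695 in ES. The ES value was 12.8 times the highest XEN value, and the log2 difference was -3.67 ± 0.28 (XEN mean 45.6 ± 10.5 units). The XEN signals on this probe set were still above the background limit. On 101881_g_at the XEN arrays had 3.10, 2.70 and 2.90 units, against 667 in ES, at least 24.4-fold lower against the limit. On 101882_s_at they had 7.80, 8.70 and 9.90 units, against 519.7 in ES, at least 19-fold lower. On 162483_f_at they had 1.3, 3.5 and 6.0 units, against 157 in ES, at least 5.77-fold lower. By log2 difference 99638_at ranked 50 from the bottom of the 8582 tested.

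The remaining Col18a1 probe set did not show this difference. Probe set 101880_at had 10.2 units in IM8A1-I, 14.7 units in IM8A1-II and 21.6 in XEN1-3, against 13.9 in ES, all under the limit, and it was therefore not tested. The annotation gives it the same source accession as 101881_g_at, which was bright in ES. RefSeq places 2 starts of Col18a1 on chromosome 10, at windows chr10:77113656-77113955 and chr10:77166481-77166780 on the minus strand. The probe sets were not placed on the genome here, so which start or exon each one reads is not known. The 4 brighter probe sets share the direction. For the 3 whose XEN values were all under the limit only the bounds above are given, since their log2 differences move with the offset added.

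**Figure D2:**
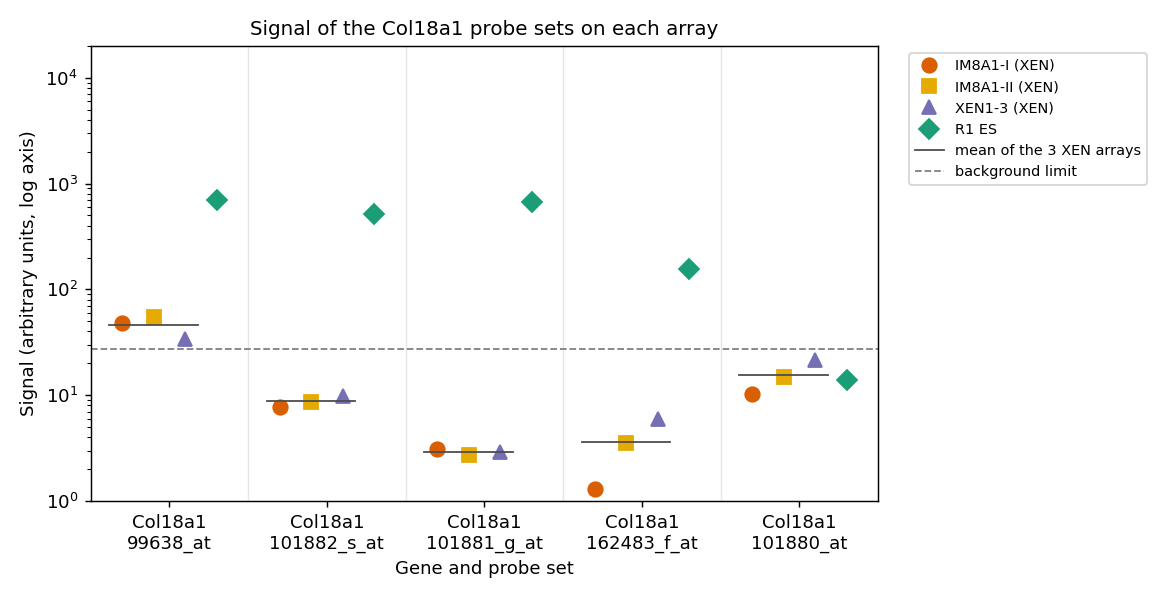
Signal of the 5 Col18a1 probe sets on each array (y axis, arbitrary units, log scale), with XEN arrays left of ES, the XEN mean as a grey bar and the background limit of 27.3 units dashed. On 4 probe sets ES lies above all XEN arrays, and on 101880_at all arrays are under the limit.

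Counted by gene, 4 of the 6 were at least 2-fold higher and 1 was at least 2-fold lower than ES on each of the 3 XEN arrays, and Hspg2 was neither. By probe set the counts were 4 higher, 4 lower and 1 neither among 9 tested. Over all tested probe sets 8.13% were at least 2-fold higher and 7.74% at least 2-fold lower on each XEN array. Since the genes were chosen with this contrast known, nothing is read from these counts. In bulk RNA, fewer cells that express a gene and less RNA per cell cannot be told apart.

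**Figure D3:**
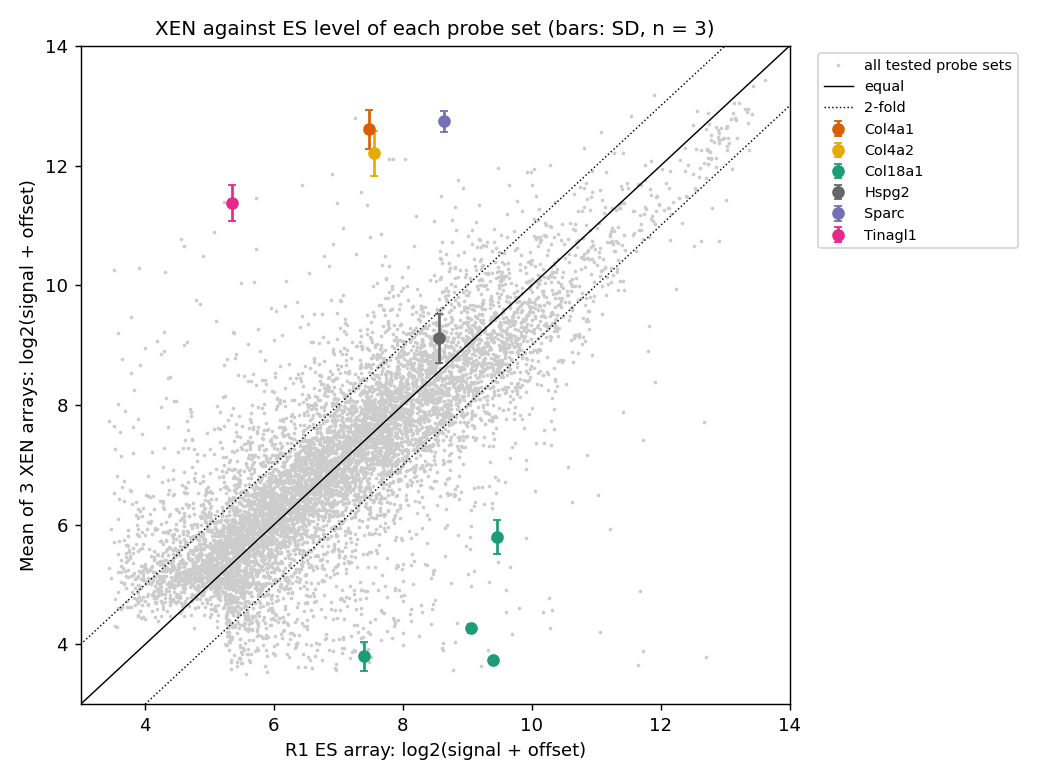
Mean log2 signal of the 3 XEN arrays (y axis) against the ES array (x axis), with 10.5 units added to each value, for 8582 tested probe sets (grey) and the 9 tested probe sets of the 6 genes (colours, bars are SD, n = 3). Solid and dotted lines mark equality and a 2-fold difference. Tinagl1, Col4a1, Col4a2 and Sparc lie far above the 2-fold line, the 4 Col18a1 probe sets far below it, and Hspg2 between the lines.

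The probe sets with the most similar pattern over the 4 arrays were found by the Euclidean distance between log2 profiles, each centred on its own mean, among 7713 candidates with 1 symbol (7710 for Col18a1). The measure rests on 4 arrays and is dominated by the difference between XEN and ES, so it is a description of likeness only. For Col4a1 the nearest was Lamb1, the laminin beta 1 chain, at a distance of 0.16, compared with a median of 4.46 over all candidates. This Lamb1 probe set had 4453, 3872 and 2929 units in the XEN cultures, against 109 in ES, the same order of arrays as Col4a1. The next were the coagulation initiator F3 (0.41) and Lama1, the laminin alpha 1 chain (0.42). Col4a2 lay nearest to Plat, the tissue plasminogen activator (0.23), the endoderm transcription factor gene Gata4 (0.35) and the collagen chaperone gene Serpinh1 (0.55), and at 0.81 from Col4a1. Plat had 1893, 1191 and 1641 units in the 3 XEN cultures, against 42.1 in ES, and like Col4a2 was lowest of these in IM8A1-II. Sparc lay nearest to the forkhead gene Foxq1 (0.14), Serpinh1 (0.29) and the chromatin remodeller gene Smarca2 (0.37). Tinagl1 lay nearest to the parathyroid hormone receptor gene Pth1r (0.31), the growth factor receptor gene Pdgfra (0.31) and the proteoglycan gene Srgn (0.51). Col18a1 lay nearest to Sap30, a histone deacetylase complex subunit gene (0.37), the immunophilin gene Fkbp5 (0.38) and Igfbp3 (0.40). Hspg2 lay nearest to the replication licensing gene Cdc6 (0.071), the signalling ligand gene Wnt10b (0.086; under the limit on all arrays but IM8A1-I) and the myosin gene Myo10 (0.10), and its median distance to all candidates was 1.02.

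The XEN cultures were compared array against array, with no replicate and no test. IM8A1-II and IM8A1-I differ in culture condition, and XEN1-3 and IM8A1-I in line, strain and passage. XEN1-3 and IM8A1-II differ in all of these, which cannot be told apart. The first 2 comparisons share the IM8A1-I array. Each gene was read by its brightest probe set. The XEN values of the other Col18a1 probe sets were all under the limit, and they did not differ 2-fold once the offset was added. Between IM8A1-II and IM8A1-I, 0 of the 6 genes differed 2-fold, compared with 5.98% of all tested probe sets (3.51% higher and 2.47% lower in IM8A1-II). Between XEN1-3 and IM8A1-I the count was again 0, compared with 9.11% of all (4.58% higher and 4.53% lower in XEN1-3). Between XEN1-3 and IM8A1-II it was 0 as well, compared with 9.53% (4.07% higher and 5.46% lower in XEN1-3). In IM8A1-II, Col4a2 was at 0.617, Tinagl1 at 0.663, Hspg2 at 0.679 and Col4a1 at 0.827 times IM8A1-I. Sparc and Col18a1 stood at 1.01 and 1.12 times. On the log2 scale the first 4 were -0.70, -0.59, -0.55 and -0.27. In the XEN1-3 line all 6 were below IM8A1-I, with Hspg2 at 0.572, Col4a1 at 0.637, Col18a1 at 0.703, Sparc at 0.813, Tinagl1 at 0.876 and Col4a2 at 0.938 times. By probe set 7 of the 9 tested were lower. The median log2 difference over all tested probe sets was 0.04 in this comparison. The share of all probe sets that were lower was not counted, so nothing is read from the shared direction. The small Sparc difference of 0.018 between the IM8A1 cultures was -0.082 with median scaling and 0.26 with quantile normalization, so it has no settled sign. With quantile normalization the Col4a1 difference between them was -0.052, that of Col18a1 was 0.061, and that of Tinagl1 between XEN1-3 and IM8A1-I was -0.093.

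**Figure D4:**
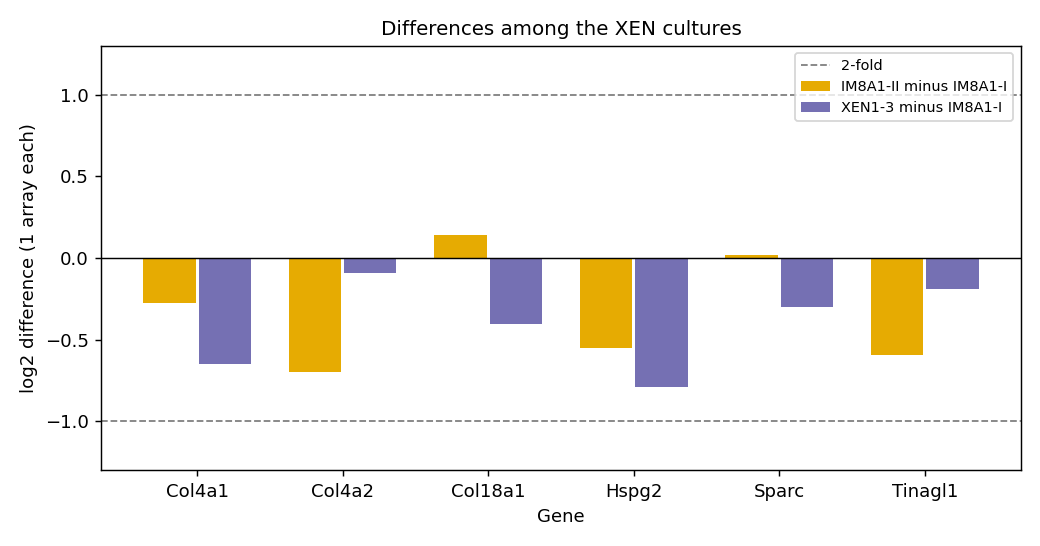
Log2 difference of IM8A1-II (yellow) and of XEN1-3 (purple) from IM8A1-I for each of the 6 genes, 1 array each, with dashed lines at a 2-fold difference. All bars lie inside the lines, the longest being Hspg2 in XEN1-3 at -0.79 and Col4a2 in IM8A1-II at -0.70.

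Other matrix genes were then read from 7 lists in limma's test over all 8582 tested probe sets, in which 5.58% were called higher and 5.05% lower in XEN (Benjamini-Hochberg adjusted p under 0.05). Of the 83 list entries tested, each by its brightest probe set, 26 were higher in XEN, 0 lower and 57 did not pass. The shares above are over all tested probe sets, bright or dim. The lists were chosen with earlier results of these data known, so their counts are a description. Further probe sets of Fbln1, Col1a1 and Col5a1 were called lower. The 26 fell to 13 without IM8A1-I and stood at 18 without IM8A1-II and 32 without XEN1-3. Of the 26, 10 passed in all 12 alternative settings.

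Among the other basement membrane genes, the laminin chains Lama1, Lamb1, Lamb2 and Lamc1 and a nidogen rose in XEN cells. Of 29 genes 21 were on the array and 14 were tested, of which 5 rose and 9 did not pass (7 were higher and 3 were lower where the unadjusted p was under 0.05). The list had a median log2 difference of 0.76, compared with 0.05 over all tested probe sets. Lama1, the alpha chain of the embryonic laminin, had 9259, 6375 and 6066 units in the XEN cultures, against 142 in ES, a rise of 5.54 ± 0.33 (SE, limma adjusted p = 0.00182). Its partner Lamb1 had 7056, 5702 and 2149.7 units on its brightest probe set, against 209.8 in ES (4.33 ± 0.66, adjusted p = 0.0183). The other Lamb1 probe set, the one nearest to Col4a1, was also called higher (4.96, adjusted p = 0.0022). Lamc1, the gamma 1 chain, averaged 918 ± 181 units in XEN and 231 in ES (1.92 ± 0.31, adjusted p = 0.0214), and Lamb2 averaged 167 ± 29.8 and 55.0 (1.43 ± 0.31, adjusted p = 0.0443). The fifth was the nidogen gene Nid2, at 1284 ± 159 and 546 units (adjusted p = 0.0489), named after its values were seen. Another laminin chain, Lama5, lay the other way, at 131, 211 and 197 units in the XEN cultures, against 377 in ES, and did not pass (-1.05 ± 0.35, adjusted p = 0.112); it too was named after its values were seen. The count of 5 was 2 without IM8A1-I, 3 without IM8A1-II and 8 without XEN1-3. Lamb1, Lamc1, Lamb2 and Nid2 all missed the threshold when low values were set to the background limit (adjusted p of 0.0946, 0.0592, 0.0856 and 0.0719), and the last 3 also without IM8A1-I (0.0592, 0.113 and 0.0964) or without IM8A1-II (0.0540, 0.0652 and 0.108). Of the 12 alternative settings, Lamb2 did not pass in 9 and Nid2 in 8, among them median scaling (0.0583 and 0.0596) and each line counted once (0.0563 and 0.0724).

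Other members of this list differed among the XEN cultures. Nid1, the other nidogen gene, had 207, 108 and 445 units in the XEN cultures, against 29.6 in ES, and did not pass (adjusted p = 0.0801). Lama4, a laminin alpha chain, had 189.8, 69.2 and 39.1 units, against 14 in ES. Smoc1, a SPARC-related modular calcium-binding protein, had 283, 519.8 and 15.3 units, against 117 in ES, so that ES lay between the XEN lines. The collagen IV chains Col4a3 and Col4a4 and the collagen XVIII relative Col15a1 were under the limit on all arrays, and Col4a5 reached it only in ES, at 28.5 units. Fbln1, a fibulin gene, averaged 124 ± 12.2 in XEN and 246 in ES on its brightest probe set, which did not pass, while both of its other tested probe sets were called lower, one of them at 79.0 ± 6.45 and 432 units (adjusted p = 0.00946).

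Many genes of collagen modification and folding rose. Of 18 tested, 11 rose and 7 did not pass (15 were higher and 0 were lower where the unadjusted p was under 0.05), all 18 lay above ES on every XEN array, and the list median was 1.55. Serpinh1, which encodes the collagen chaperone HSP47, averaged 4432 ± 361 units in XEN and 221 in ES (4.26 ± 0.25, adjusted p = 0.00182). The prolyl 4-hydroxylase subunits P4ha1 and P4ha2, which stabilise the collagen helix, averaged 1788 ± 27.8 and 2651 ± 809 units in XEN, with 169.9 and 163 in ES. Colgalt1, a collagen galactosyltransferase, averaged 1055 ± 166 and 182 (2.45 ± 0.29, adjusted p = 0.0103). These 4 passed in every alternative setting. The list's count was 5 without IM8A1-I, 8 without IM8A1-II and 12 without XEN1-3. P3h4, a prolyl hydroxylase complex component, had 684, 615 and 333 units in the XEN cultures, against 84.6 in ES, and missed the threshold without IM8A1-I (0.0671) or IM8A1-II (0.0681), with low values set to the limit (0.0998) and with each line counted once (0.0519).

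Of 14 matrix receptors tested, 2 rose (14.3%, compared with 5.58% of all tested probe sets) and 12 did not pass. Where the unadjusted p was under 0.05, 3 were higher and 1 was lower, and the list median was 0.39. The integrin alpha chain genes Itga5, a fibronectin receptor subunit, and Itgav averaged 117 ± 12.8 and 1639 ± 220 units in XEN, with 26.9 and 595 in ES (adjusted p of 0.0206 and 0.0322). On its other tested probe sets Itgav did not pass (0.0568 and 0.0578). The count was 0 without IM8A1-I, 0 without IM8A1-II and 1 with low values set to the limit, where Itgav missed the threshold (0.0602). Itgb1, the beta subunit of the collagen and laminin receptors, averaged 2963 ± 315 and 1609 units and did not pass on its brightest probe set (adjusted p = 0.0851), but passed on another (0.0454). Sdc2, a syndecan, averaged 20.2 ± 4.35 and 60.8 units without passing (0.0826), its XEN values all under the limit, and passed as lower when low values were set to the limit (0.00224). Dag1, which encodes the laminin and perlecan receptor dystroglycan, had 102 units in IM8A1-I, 407 units in IM8A1-II and 479 in XEN1-3, against 449.9 in ES, so that IM8A1-I stood apart.

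Among Sparc relatives and other matricellular genes 2 of 7 rose, 0 fell and 5 did not pass (3 were higher and 1 were lower where the unadjusted p was under 0.05; list median 0.62). Spock1, a proteoglycan with a SPARC-like domain, averaged 163 ± 29.3 units in XEN and 14.1 in ES, at least 5.89-fold higher (adjusted p = 0.00865). Ccn2, connective tissue growth factor, had 2707, 7059 and 4464 units in the XEN cultures, against 251 in ES (4.08 ± 0.53, adjusted p = 0.0122), and did not pass when low values were set to the limit (0.0722). Its relative Ccn1 had 289, 645 and 168 units, against 48.3 in ES (0.0777). Both were at least 2-fold higher in IM8A1-II than in IM8A1-I. Sparcl1, the closest relative of Sparc, was under the limit on all arrays. Fn1, fibronectin, averaged 302 ± 57.9 and 736 units, at -1.28 ± 0.32 in log2, which passed only when XEN1-3 was left out (0.0424, and 0.0605 with all arrays).

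In the matrix proteolysis and cross-linking list 5 of 13 rose, 0 fell and 8 did not pass (7 were higher and 1 were lower where the unadjusted p was under 0.05; list median 1.16). The plasminogen activator gene Plat averaged 1575 ± 356 units in XEN and 42.1 in ES (4.89 ± 0.34, adjusted p = 0.00275), and the urokinase receptor gene Plaur 239.9 ± 5.62 and 43.2 (2.22 ± 0.26, adjusted p = 0.00946). Ctsl, a cathepsin that can release endostatin from collagen XVIII, averaged 4047 ± 1042 and 704 (adjusted p = 0.0137), and the metalloproteinase inhibitor gene Timp2 228 ± 53.1 and 39.6 (0.0202). The list's count was 3 without IM8A1-I, where Timp2 (0.0579) and Ctsb (0.0912) missed the threshold, and 2 with low values set to the limit, where Ctsl (0.0606), Timp2 (0.0639) and Ctsb (0.0859) did. Another inhibitor gene, Timp3, had 183, 645 and 292 units in the XEN cultures, against 75.5 in ES (0.114), and the membrane metalloproteinase gene Mmp14 had 296, 433 and 121 units, against 298 in ES.

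Heparan sulfate synthesis had 1 call, Hs3st1, a heparan sulfate sulfotransferase, at 1239 ± 293 units in XEN and 0.9 in ES, at least 44.6-fold higher (adjusted p = 0.00175). The other 8 of 9 tested did not pass (5 of the 9 were higher and 0 were lower where the unadjusted p was under 0.05; list median 0.81; 2 calls without XEN1-3), among them the polymerase gene Ext1 at 571 ± 180 and 169 units (0.0572). Among fibrillar and interstitial collagens limma called 0 of 8 tested, with 1 higher and 1 lower where the unadjusted p was under 0.05 and a list median of -0.04, and 11 more were not tested because their brightest probe set was under the limit on all arrays. With so few tested, 0 of 8 is near the shares called over all tested probe sets (5.58% higher and 5.05% lower). Col1a2, a type I collagen chain, averaged 369 ± 28.9 units in XEN and 206 in ES (0.110). Its partner chain Col1a1 averaged 78.8 ± 14.6 and 153 (0.121), and a further, dimmer Col1a1 probe set was called lower, at 2.30 ± 0.721 and 114 units (0.0104), as was one of Col5a1 (0.0343). Of 25 further tested probe sets of list genes, 11 differed in their call from the brightest probe set of the gene and 14 did not.

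**Figure D5:**
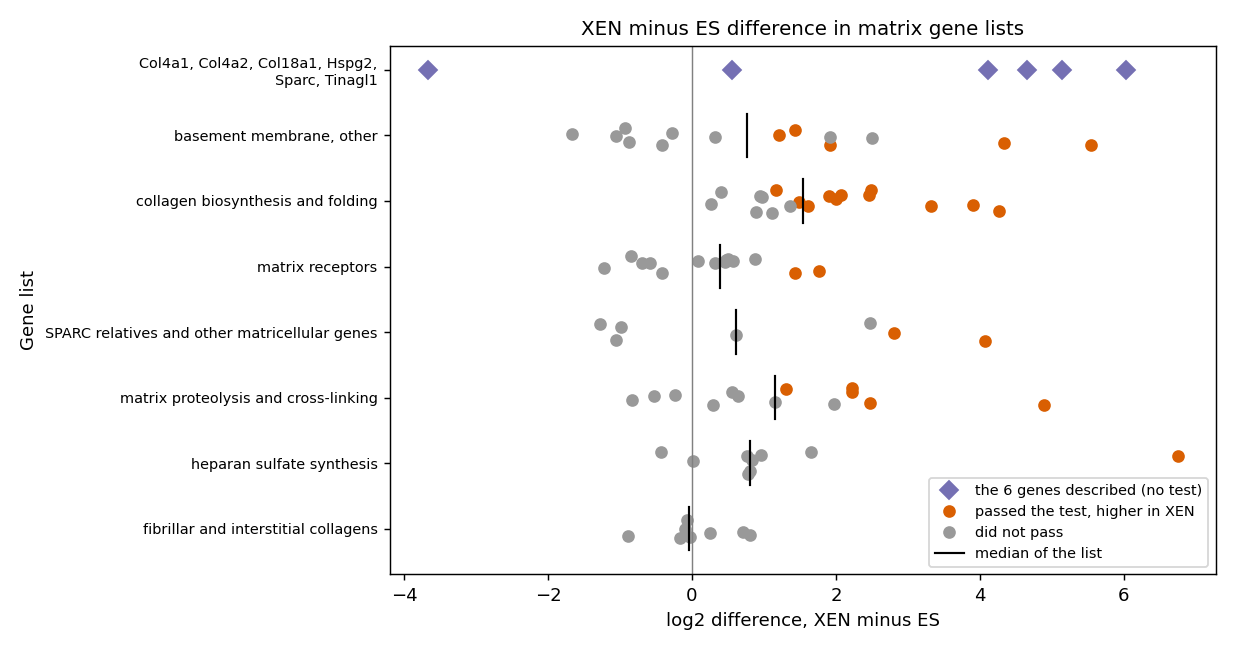
Log2 difference of XEN minus ES for each tested gene of the 7 lists (x axis, brightest probe set of each gene), with orange points for genes that passed limma's test as higher, grey for those that did not pass and a black bar at the list median. The 6 genes described are the diamonds of the top row and carry no test. Orange points are most frequent in the collagen biosynthesis and folding list (11 of 18). The fibrillar and interstitial collagens have 0 of 8, which is near the 5.58% called higher over all tested probe sets.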

How the data were processed

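RNA of 4 cultures was hybridised to 4 Affymetrix MG_U74Av2 arrays. The authors deposited 1 linear intensity per probe set for each array; no source used here names the summary software. Its 2% trimmed mean is 150.09 on each array, so the deposited intensities are already scaled. They were brought to that mean, 10.5 units (the 25th percentile) were added and log2 was taken, which understates changes of dim genes. The 66 control probe sets were left out, and the 8582 probe sets that reached 27.3 units on any array were tested with limma 3.58.1 in R 4.3.3 (lmFit, then eBayes with trend; 2 residual and 3.76 prior degrees of freedom). Its p-values are two-sided, adjusted by Benjamini-Hochberg over all tested. They reflect only how these cultures differ from each other, which may be technical, and the lone ES culture is taken to vary like the XEN ones. Where one group was wholly under the limit, "at least" folds set the geometric mean of the brighter group against the limit.

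Of 10833 probe sets with 1 symbol in the platform annotation, 10817 matched RefSeq (GRCm38.p6). The probe set of highest mean log2 value stood for a gene. In each list the 4 genes of smallest p, genes called against the list and up to 4 genes per contrast that differed 2-fold within XEN and reached 84.7 units were eligible to be named; others are marked or listed as values. The 6 genes and all lists were chosen with earlier results of these data known. The test was checked on simulated data. There the ES array was given the spread of the XEN arrays, so the assumption that it varies like them was not checked.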

Additional observations from a re-analysis of the deposited data

How the results depend on the processing

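For the 6 genes by their brightest probe set, the direction of the XEN and ES difference held under every alternative run (offsets, a floor, median and quantile scaling, each XEN culture left out, each line counted once). The Col18a1 difference was -2.97 when the median signal was added and -3.96 when low values were set to the limit, and that of Tinagl1 was 5.08, 6.45 and, when the 5th percentile was added, 6.37. The dim Col18a1 probe set 101880_at was at 0.068, and between -0.095 (without XEN1-3) and 0.22 when a culture was left out. Without each XEN culture in turn, 185 to 778 probe sets were called higher (479 with all) and 181 to 710 lower (433 with all), the lowest counts without IM8A1-I and the highest without XEN1-3, and the cause was not tested. With low values set to the limit 240 were higher. Over the 7 lists, 13 to 32 were higher when a culture was left out (26 with all), 16 with low values set to the limit, and 0 to 1 lower; 4 were lower at the limit setting and 2 without a filter. Among other basement membrane genes, 2 to 8 were higher when a culture was left out; 3 with the median signal added, with median scaling, with each line counted once, without a filter and without a variance trend; and 1 higher and 1 lower with low values set to the limit. Between XEN1-3 and IM8A1-I, 9 list and member probe sets passed 2-fold, and 5 with the median signal added. Signs turned for Smoc1 (0.31; -0.13 without IM8A1-I, -0.55 without IM8A1-II, 1.63 without XEN1-3, -0.34 with each line counted once), Mmp14 (-0.62 without IM8A1-II to 0.26 without XEN1-3), Col9a1 (-0.50 without IM8A1-II to 0.40 without XEN1-3) and Sparc between the IM8A1 cultures (-0.082 with median scaling). No paired analysis was possible because ES has 1 array and the XEN numbers are only names. With 1 ES array, small differences such as that of Hspg2 cannot be resolved, and signals under 27.3 units have no order.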
